A study of Danio rerio with 12 samples.

Results

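Hox cluster genes encode homeodomain transcription factors, and 40 of them were followed here in endothelial cells sorted from zebrafish embryos with and without morpholinos against miR-126. Members were all genes whose platform symbol is hox, a cluster letter from a to d and a number, apart from hoxa9a and hoxa9b, out of 8793 genes with a probe set of their own. They had 56 probe sets, and each gene was represented by the probe set with the highest mean log2 signal over the 12 arrays; 12 genes had 16 further probe sets. The members were 9 genes of the A clusters, 13 of the B clusters, 12 of the C clusters and 6 of the D cluster. Of 49 protein-coding Hox genes that RefSeq names for zebrafish, 40 were members and 2 were the genes set aside; the other 7 were not analysed here. All 40 were tested, with no filter on signal.

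Hox genes lie in clusters in which the order of the genes follows the body region where each is used. Low paralog numbers, at one end of a cluster, act in the hindbrain and branchial region, middle numbers in the trunk, and high numbers in the posterior trunk, tail and fins. The proteins bind DNA together with Pbx and Meis family cofactors, retinoic acid switches on the genes of low number, and Polycomb proteins keep unused genes silent. Endothelial cells of vertebrates also use several of them, human HOXA3, HOXD3 and HOXB5 among those known to act in blood vessel growth.

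The arrays were one-colour Affymetrix zebrafish arrays in 3 groups of 4 biological replicates. All 12 samples came from embryos carrying flk1:GFP, in which the promoter of flk1, a Vegf receptor gene now called kdrl, drives GFP, and GFP-positive cells were sorted at 48 hours after fertilization. The MO-1 and MO-2 groups received 4 ng of one or the other of 2 independent morpholinos, antisense oligonucleotides against processing of the miR-126 precursor, at the one-cell stage. Control embryos carried the same transgene; replicate 1 is labelled uninjected, the labels of replicates 2 to 4 mention no injection, and no control oligonucleotide is named, so effects of injection and of miR-126 loss cannot be told apart. The labels do not say how many embryos made a sample.

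Array medians lay between 6.80 and 6.86 and upper quartiles between 8.12 and 8.24 on the log2 scale. Lower quartiles, the range of many Hox genes, ran from 5.39 in control replicate 3 to 5.61 in MO-1 replicate 4. Of 32 endothelial markers, 12 were measured, and kdrl, tie1 and erg, genes of endothelial cells, had mean log2 signals of 7.39, 8.62 and 8.55. Dimmer ones were sox17, lmo2, tal1 and mrc1a, at 5.09, 5.80, 6.55 and 6.67. For tek, aplnra, flt4 and plvapb the means were 7.28, 7.73, 8.20 and 8.66. Signal for other cell types was present as well: the neuronal gene elavl3 averaged 10.3, the epidermal keratin krt4 11.8 and the slow muscle myosin smyhc1 12.4. The hindbrain gene egr2b and the fin bud gene tbx5a were dim, at 5.07 and 5.01, but most measured markers of their lists were brighter. Of 17 hindbrain and spinal cord markers measured, 6 lay below the lower quartile of all probe sets, and pax2a of that list averaged 7.78. Among 12 fin bud and lateral plate markers measured, 2 lay below it. The 3 arrays numbered 4 had endothelial scores, the mean of the 12 markers after centring each on its own mean, of -0.55 (control), -0.93 (MO-1) and -0.88 (MO-2), against -0.12 to 0.49 in the other 9. RNA came from whole sorted samples, in which fewer cells of a type and less RNA per cell cannot be told apart.

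Hox signal was spread over the lower and middle range of the array. The median member had a mean log2 signal of 6.14, against 6.83 for all probe sets. Of 40 members, 27 lay above the lower quartile of all probe sets (5.52), 10 above the median and 2 above the upper quartile (8.14), hoxb3a and hoxb8a. Since the signal of a probe set depends on its own probes, these levels describe where each gene sat on the array and do not rank transcript amounts. By paralog number, 7 of 13 genes numbered 1 to 4 lay above the median probe set, 3 of 12 numbered 5 to 8, and 0 of 15 numbered 9 to 13. The median of the gene means was 7.14, 6.27 and 5.28 in these classes.

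**Figure D1:**
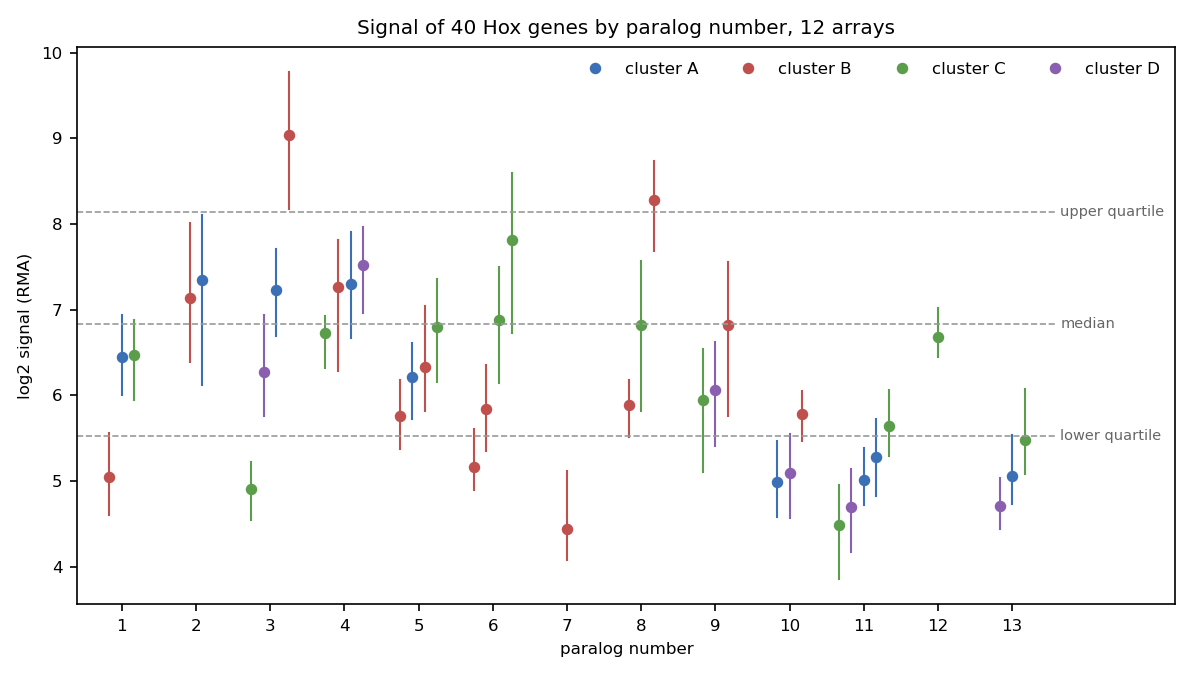
Mean log2 signal (y axis) of the 40 Hox genes by paralog number (x axis), with vertical bars from the lowest to the highest of 12 arrays, colours for the cluster letter and dashed lines for the quartiles of all probe sets. Genes numbered 9 to 13 all lie below the median line of 6.83, and hoxb3a and hoxb8a lie above the upper quartile of 8.14.

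Among the genes of low number, hoxb3a, which acts in hindbrain rhombomeres, read 9.76, 9.28, 9.26 and 8.28 in control replicates 1 to 4, 9.77, 9.08, 9.03 and 8.35 with MO-1 and 9.10, 9.11, 9.33 and 8.18 with MO-2. It stood above the upper quartile of all probe sets in all 12 arrays, and its 3 lowest values were those of the arrays numbered 4. hoxa2b, which patterns the hindbrain and the second pharyngeal arch, averaged 7.35 (range 6.11 to 8.10) and hoxb2a, a neighbour of hoxb3a in its cluster, 7.14 (6.38 to 8.01). In paralog group 1, hoxb1a, the identity gene of rhombomere 4, averaged 5.04 (4.60 to 5.56) and hoxc1a 6.48 (5.94 to 6.87). hoxc3a was the lowest of paralog group 3 at 4.91 (4.54 to 5.22). Paralog group 4 ran from hoxc4a at 6.72 (6.32 to 6.92) to hoxd4a at 7.52 (6.96 to 7.96).

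In the middle of the clusters, hoxb8a, a trunk gene, read 8.16, 7.69, 8.03 and 8.13 in control, 8.53, 8.30, 8.53 and 7.78 with MO-1 and 8.63, 8.74, 8.66 and 8.16 with MO-2. The 4 MO-2 arrays lay above the 4 control arrays, although the highest control array and the lowest MO-2 array both rounded to 8.16. Paralog group 5 ran from hoxb5b at 5.76 (5.37 to 6.18) to hoxc5a at 6.79 (6.15 to 7.36). Group 6 ran from hoxb6b at 5.16 (4.89 to 5.60) to hoxc6a at 7.81 (6.72 to 8.60). hoxb7a, the one member numbered 7, averaged 4.44 and was the lowest of all 40. hoxb8b was the lowest of group 8, at 5.88 (5.52 to 6.18).

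Posterior members had low signal with few exceptions. In group 9, hoxb9a averaged 6.82 (5.76 to 7.56) and hoxc9a 5.95 (5.11 to 6.54). hoxc12b, the one member numbered 12, averaged 6.68 (6.45 to 7.02). The highest and lowest means were 5.78 for hoxb10a and 4.99 for hoxa10b in group 10, 5.64 for hoxc11b and 4.48 for hoxc11a in group 11, and 5.48 for hoxc13a and 4.71 for hoxd13a in group 13. Genes numbered 10, 11 and 13 pattern the tail and the distal fin. Of the 15 members numbered 9 to 13, 6 lay above the lower quartile of all probe sets.

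MO-1 was compared with control to ask which Hox genes differ after one oligonucleotide against miR-126 processing. None of the 40 passed, and the largest difference was 0.53 log2, a 1.45-fold higher mean signal for hoxd11a, a posterior trunk and fin gene. Of the 40 members, 36 had a higher mean with MO-1, against 54.7% of all probe sets, with a median difference of 0.19 log2 (1.14-fold) against 0.02 for all probe sets. By limma with Benjamini-Hochberg adjustment 0 of 15502 probe sets passed, 0% of those tested, and adjusted p = 1 for each Hox gene; before adjustment 3 Hox genes had a p under 0.05, as had 172 probe sets or 1.11%. Without control replicate 3 the median was 0.10 and 29 of 40 genes were higher.

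hoxd11a read 4.53, 4.61, 4.17 and 4.28 in control replicates 1 to 4 and 4.89, 5.09, 4.82 and 4.90 with MO-1. Its groups did not overlap, and the difference was 0.53 (SE 0.18), with a 95% interval of 0.15 to 0.92. The signal of hoxd11a lay below the lower quartile of all probe sets in every array. hoxb1a read 4.76, 4.82, 4.60 and 4.78 in control and 5.38, 5.22, 5.12 and 5.12 with MO-1. These groups were also apart, with a difference of 0.47 (SE 0.19), at a signal below the lower quartile of all probe sets. hoxd4a, a hindbrain and spinal cord gene, read 7.53, 7.35, 6.96 and 7.31 in control and 7.77, 7.69, 7.59 and 7.59 with MO-1, a difference of 0.37 (SE 0.17); its lowest MO-1 array was just above its highest control array. hoxd9a, a posterior gene of the same cluster, read 6.13, 6.13, 5.43 and 5.40 in control and 6.21, 6.26, 6.34 and 6.15 with MO-1, a difference of 0.47 (SE 0.23). Control replicates 3 and 4 were low for hoxd9a, while control replicates 1 and 2 lay close to the MO-1 arrays. hoxc11a read 4.38, 4.54, 3.92 and 3.86 in control and 4.75, 4.38, 4.63 and 4.67 with MO-1, a difference of 0.43 (SE 0.21), and its groups overlapped.

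All arrays of one group above all of the other occurred for 5 of 40 members with MO-1, which were hoxb1a, hoxb7a, hoxd4a, hoxd9a and hoxd11a, against 0.645% of all probe sets. Of these, hoxb1a, hoxb7a and hoxd11a averaged 5.04, 4.44 and 4.69, below the lower quartile of all probe sets, and hoxd4a and hoxd9a lay above it. The shares given are over probe sets of any signal. 0 members were lower without overlap (0.323%). Genes numbered 5 to 8 and 9 to 13 were all higher in mean with MO-1 (12 of 12 and 15 of 15, medians 0.20 and 0.17). Of the genes numbered 1 to 4, 9 of 13 were higher, with a median of 0.06. The 4 members with a lower mean were hoxb3a, hoxb4a, hoxc1a and hoxd3a, by at most -0.09 for hoxb3a.

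MO-2, the second oligonucleotide, was compared with the same 4 control arrays, so a low or high control array enters both comparisons. Again none of the 40 passed, and the largest difference was that of hoxb9a, a posterior trunk gene, at 0.93 log2 or 1.91-fold. Of 40 members, 37 had a higher mean with MO-2, against 51.9% of all probe sets, and the median difference was 0.27 log2 against 0.01. By limma 0 of 15502 probe sets passed (0%), with adjusted p = 0.9998 for each Hox gene; before adjustment 6 Hox genes had a p under 0.05, as had 345 probe sets or 2.23%. Without control replicate 3 the median was 0.18 and 34 of 40 were higher.

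hoxb9a read 7.05, 6.43, 5.76 and 6.12 in control, 7.06, 7.56, 6.50 and 6.28 with MO-1 and 7.42, 7.52, 7.14 and 7.0 with MO-2. Control replicate 1 lay above the lowest MO-2 array, so the groups overlapped, and MO-2 exceeded control in 4 of 4 pairs that share a replicate number. The difference was 0.93 (SE 0.30) with a 95% interval of 0.29 to 1.57. For hoxb8a, given above by array, the difference was 0.55 (SE 0.19). hoxc6b, a trunk gene, read 6.89, 7.0, 6.15 and 6.49 in control and 7.14, 7.49, 7.33 and 6.76 with MO-2, a difference of 0.55 (SE 0.21); control replicates 1 and 2 lay inside the MO-2 range. hoxa10b, a posterior gene, read 4.85, 4.83, 4.58 and 4.65 in control and 4.97, 5.42, 5.39 and 4.87 with MO-2, without overlap, a difference of 0.43 (SE 0.18). hoxc11a differed by 0.49 (SE 0.21) with MO-2, whose arrays read 4.71, 4.95, 4.88 and 4.12, and hoxb1a by 0.43 (SE 0.19), with MO-2 arrays at 5.56, 5.48, 5.05 and 4.61. In both genes MO-2 replicate 4 was the lowest of its group and lay within the range of the controls.

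With MO-2, 4 of 40 members lay above control without overlap, hoxa10b, hoxb5b, hoxb8a and hoxc13a, against 0.955% of all probe sets. For hoxb5b, as for hoxb8a, this was nearly a tie: its highest control array and lowest MO-2 array both rounded to 5.73. 0 members lay below without overlap (0.884%). Of the 4 above, hoxa10b and hoxc13a averaged 4.99 and 5.48, below the lower quartile of all probe sets, and hoxb5b and hoxb8a lay above it. All 12 genes numbered 5 to 8 and all 15 numbered 9 to 13 had a higher mean (medians 0.28 and 0.29), as did 10 of 13 numbered 1 to 4 (median 0.10). The 3 lower ones were hoxb3a, hoxd3a and hoxb2a, at -0.22 (SE 0.35), -0.19 (SE 0.26) and -0.13 (SE 0.34).

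**Figure D2:**
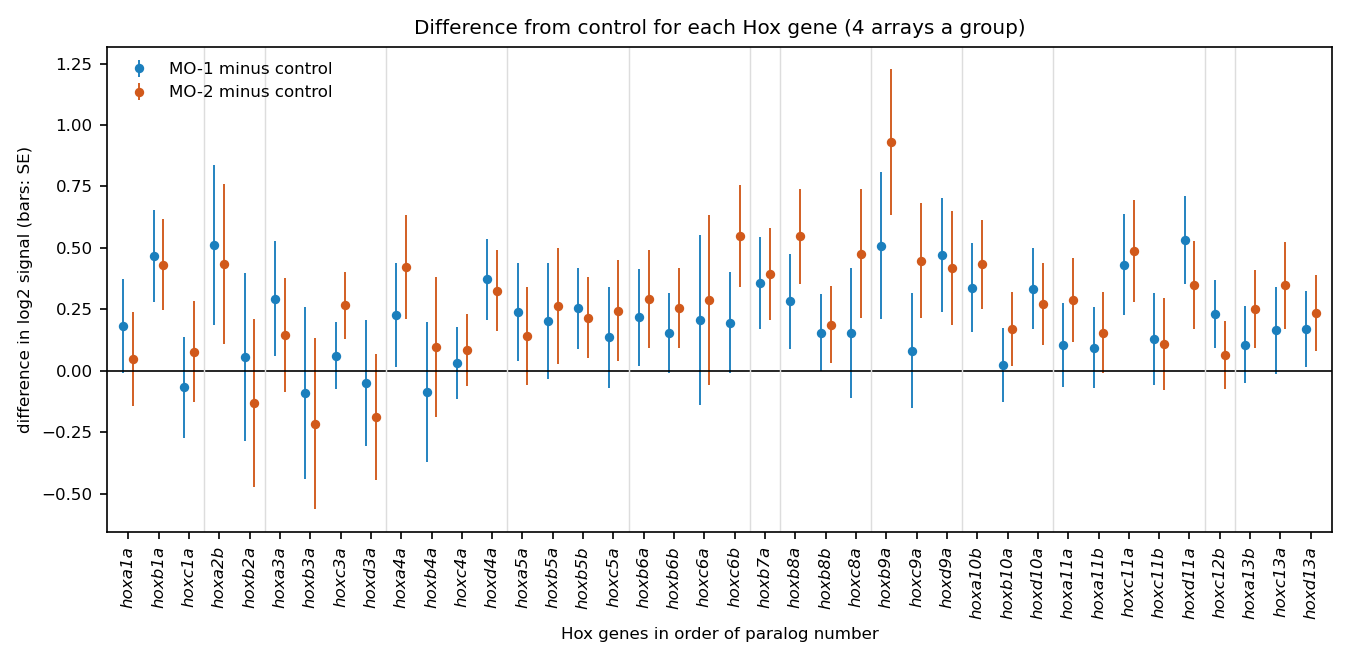
Difference in mean log2 signal from control (y axis) for each Hox gene in order of paralog number (x axis), MO-1 in blue and MO-2 in orange, with limma's SE as bars and 4 arrays in each group. Most points lie between 0 and 0.55, hoxb9a with MO-2 lies at 0.93, and hoxb3a and hoxd3a lie below 0 for both.

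Taking the 8 morpholino arrays together, 37 of 40 members had a higher mean than control (54.0% of all probe sets), with a median of 0.23. None passed by limma (0 of 15502 probe sets, 0%, adjusted p = 0.9999), and 9 members had a p under 0.05 before adjustment (1.89% of all probe sets). The smallest p-values belonged to hoxd11a at 0.44 (SE 0.15), hoxb9a at 0.72 (SE 0.26), hoxb1a at 0.45 (SE 0.16), hoxc11a at 0.46 (SE 0.18) and hoxb8a at 0.41 (SE 0.17). For 0 of 40 members did all 8 arrays lie above the 4 controls (0.0968% of all probe sets), and for 0 did they lie below (0.0903%). Without control replicate 3 the median was 0.13 and 33 of 40 were higher.

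The morpholinos were also compared with each other, a comparison that uses no control array. Here 25 of 40 members were higher with MO-2, against 46.4% of all probe sets, with a median of 0.06, which was -0.02 without MO-1 replicate 2 and -0.05 without the arrays numbered 2. By limma 0 probe sets passed (0%, adjusted p = 0.9999), and before adjustment 0 members and 0.561% of probe sets had a p under 0.05. The smallest p-values were those of hoxc6b at 0.35 (SE 0.21), hoxc9a at 0.37 (SE 0.23), hoxc3a at 0.20 (SE 0.14), hoxb9a at 0.42 (SE 0.30) and hoxb8a at 0.26 (SE 0.19). In this fit, which has no term for the replicate number, the intervals of these differences include 0, for hoxb9a from -0.22 to 1.06. With the replicate number added to the fit, as described below, hoxb9a had a p under 0.05 before adjustment, and 0 probe sets passed (limma). hoxc9a, a posterior trunk gene, gave 5.73, 5.90, 5.69 and 6.09 with MO-1 and 6.25, 6.54, 6.32 and 5.77 with MO-2, and hoxc3a gave 5.05, 4.68, 4.85 and 4.88 and 5.15, 4.99, 5.22 and 4.91. In both genes the groups overlapped.

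Hox signal varied among arrays of the same group, with a median residual SD of 0.28 log2 against 0.26 for all probe sets. After centring each gene on its mean over 12 arrays, the median of the 40 members was 0.01, 0.03, -0.37 and -0.24 in control replicates 1 to 4, 0.05, -0.04, 0.11 and 0.08 with MO-1, and 0.05, 0.18, 0.30 and -0.17 with MO-2. Control replicates 3 and 4 were the lowest arrays of the 12, MO-2 replicate 4 the next, and control replicates 1 and 2 lay within the range of the morpholino arrays. Control replicate 3 held the lowest of 12 values for 20 of 40 members, against 10.6% of all probe sets. MO-2 replicate 2 held the highest for 11 members, against 5.79% of all probe sets.

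**Figure D3:**
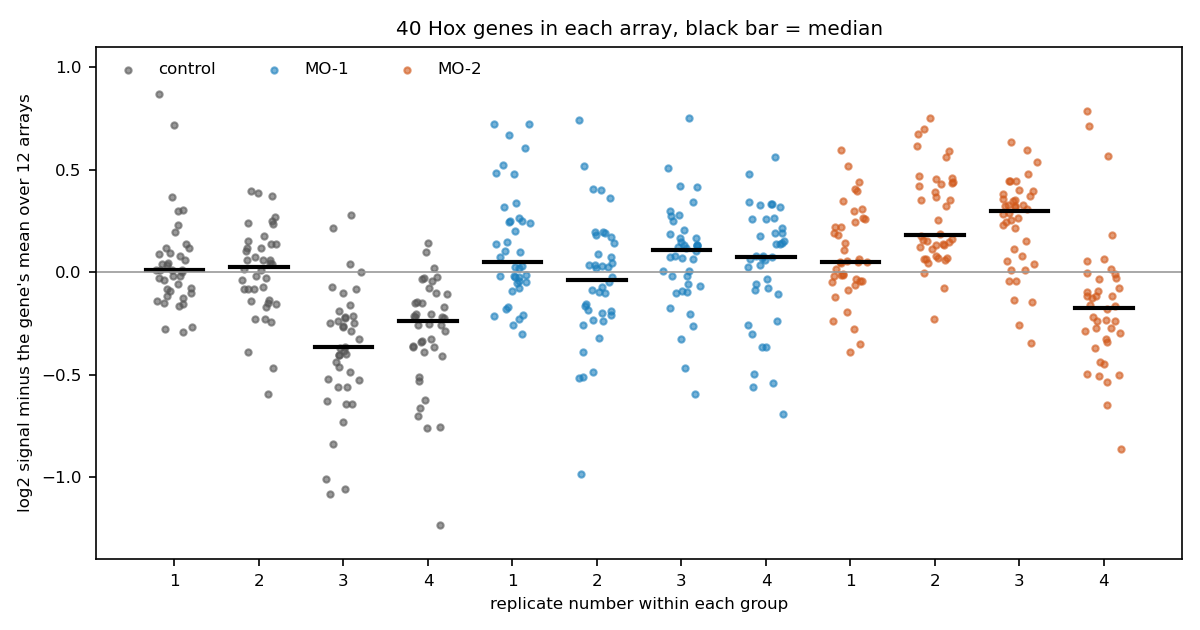
Log2 signal of each of the 40 Hox genes minus that gene's mean over 12 arrays (y axis) in every array, grouped by treatment and replicate number (x axis), with black bars at the median. Control replicates 3 and 4 have the lowest medians, -0.37 and -0.24, and MO-2 replicate 3 the highest, 0.30.

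Within pairs of arrays sharing a replicate number, the median MO-1 difference over the 40 members was 0.03, -0.11, 0.50 and 0.29 for numbers 1 to 4, with 24, 13, 37 and 37 members higher. With MO-2 it was 0.08, 0.22, 0.59 and 0.06, with 26, 34, 37 and 28 higher. Pair 3 gave the largest median in both, and pair 2 gave opposite signs for MO-1 and MO-2. Higher in 4 of 4 pairs were 7 members with MO-1 (6.26% of all probe sets) and 16 with MO-2 (7.06%). Lower in 4 of 4 pairs were 0 members in either (3.86% and 6.86% of all probe sets). With the replicate number as a block in the fit, 0 probe sets passed (limma), and the Hox genes with a p under 0.05 before adjustment were 8 for MO-1, 12 for MO-2, 12 for the mean of both and 1 for the morpholinos against each other, against 2.87%, 6.11%, 5.48% and 2.28% of all probe sets. The 1 gene for the morpholinos against each other was hoxb9a. In that fit hoxb9a with MO-2 against control had an SE of 0.19 and adjusted p = 0.239 (limma). Without the arrays numbered 3 the median Hox difference was 0.11 with MO-1 and 0.13 with MO-2.

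Several other measures moved with these comparisons. Endothelial markers had a higher mean for 11 of 12 genes with each morpholino (medians 0.15 and 0.26), with 0 passing. Their scores ran from -0.55 to 0.09 in control, -0.93 to 0.49 with MO-1 and -0.88 to 0.49 with MO-2. Skeletal muscle markers had a higher mean for 22 of 22 genes with MO-2 and 9 of 22 with MO-1 (medians 0.57 and -0.06). Their score was -1.60 in control replicate 3, against -0.25 to 0.55 in the other controls. With MO-1 it ran from -1.24 in replicate 3 to 0.71 in replicate 4, with -0.96 in replicate 1. With MO-2 it ran from -0.12 to 1.18. Markers of hindbrain and spinal cord were higher for 15 of 17 genes with MO-1 and 11 of 17 with MO-2 (medians 0.10 and 0.06), and neural markers lower for 17 of 26 and 18 of 26. Fin bud and lateral plate markers were higher for 9 of 12 and 11 of 12 (median 0.11 in both). Epidermal markers were lower for 18 of 23 genes with MO-1 and 15 of 23 with MO-2 (medians -0.14 and -0.10). The part of these lists in the Hox differences was not tested.

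Dim probe sets as a whole more often had a higher mean in the morpholino arrays. After centring, the median of all probe sets with means up to the lower quartile was lowest in control replicate 3, at -0.12, and highest in MO-1 replicate 4, at 0.12. Of 2760 probe sets with a mean up to 5 log2, 71.7% were higher with MO-1 and 67.3% with MO-2, with medians of 0.07 and 0.05. The 6 Hox genes in that range had medians of 0.35 and 0.37. Between 5 and 6 log2 the medians were 0.07 and 0.04 for all probe sets and 0.15 and 0.26 for 13 Hox genes. Between 6 and 7 they were 0.03 and 0.01 for all and 0.19 and 0.19 for 12 Hox genes, and between 7 and 8 0.00 and -0.01 for all and 0.23 and 0.29 for 7 Hox genes.

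The further probe sets of the same genes gave a second reading of the same RNA. Of 16 such probe sets in 12 genes, 15 had the same direction as the chosen probe set with MO-1 and 16 with MO-2, with medians of 0.19 and 0.35. Between the morpholinos 11 of 16 had the same direction, and for the differences by replicate number described next 12, 8, 5 and 13 of 16 for numbers 1 to 4. The second probe set of hoxb9a had differences of 0.13 with MO-1 and 0.58 with MO-2, smaller than those of the chosen one, and 0.07 for number 3, where the chosen one had -0.47. The further probe sets of hoxb8a had 0.30 and 0.36 with MO-2, where the chosen one had 0.55. Between the morpholinos both had -0.05, opposite in direction to the 0.26 of the chosen one. These probe sets share the arrays and are no further replicates.

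Replicate numbers run from 1 to 4 in every group, and whether Hox signal follows the number was tested over the 12 arrays with group as a term. What the number stands for is not stated, and arrays that share one may not be independent replicates of it. Each number was set against the mean of the other numbers, so the 4 differences of a gene are not independent of each other. The arrays numbered 4 had lower signal of anterior Hox genes, hoxb3a, hoxb2a, hoxa2b, hoxa3a and hoxd3a, by 0.56 to 1.03 log2, and higher signal of hoxc6a. These were 6 of 40 members past the threshold, against 10.2% of all probe sets (5 lower, against 4.1%, and 1 higher, against 6.05%). Of the 40 members, 32 were lower in these arrays, where 48.5% of all probe sets were higher, with a median of -0.16. A lower mean was not limited to anterior genes. It was seen for 12 of 13 genes numbered 1 to 4 (median -0.28), 8 of 12 numbered 5 to 8 (-0.06) and 12 of 15 numbered 9 to 13 (-0.11). The test of any difference among the 4 numbers passed for 6 members, hoxb2a, hoxb3a, hoxc6a, hoxa2b, hoxa3a and hoxb9a, against 12.1% of all probe sets, with adjusted p-values of 0.0028, 0.0038, 0.0070, 0.0131, 0.0408 and 0.0458 in that order (limma). Counted in both directions, the 6 members of each test were near the shares of all probe sets. The 5 of 40 lower at number 4 were above the 4.1% of all probe sets.

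hoxb3a read 8.28, 8.35 and 8.18 in the arrays numbered 4 (control, then MO-1, then MO-2), against means of 9.55 ± 0.38, 9.15 ± 0.11 and 9.21 ± 0.16 for numbers 1, 2 and 3 (SD, n = 3). Its difference from the other numbers was -1.03 (SE 0.15), or 0.49 of their signal (adjusted p = 0.0012 by limma), and the 3 arrays lay below the other 9. hoxb2a read 6.38, 6.58 and 6.49, also below the other 9 arrays, a difference of -0.87 (SE 0.14) (limma, adjusted p = 0.0022). hoxa2b read 6.11, 7.05 and 7.01, with control replicate 4 far below the other two, a difference of -0.83 (SE 0.16) (limma, adjusted p = 0.0070); without control replicate 4 it was -0.64, with adjusted p = 0.0634. hoxa3a, a gene of the branchial region, read 6.69, 6.99 and 6.72, a difference of -0.56 (SE 0.14) (limma, adjusted p = 0.0217). Without control, MO-1 or MO-2 replicate 4 its adjusted p was 0.0722, 0.0771 and 0.136. hoxd3a read 5.76, 5.90 and 5.76, a difference of -0.61 (SE 0.18) (limma, adjusted p = 0.0435), and it no longer passed when any 1 of 9 arrays was left out, with adjusted p from 0.0524 to 0.19; these were control replicates 1 to 4, MO-1 replicates 1 and 4, and MO-2 replicates 2, 3 and 4. hoxb3a and hoxb2a passed without each of the 12 arrays.

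hoxc6a, a trunk gene, ran the other way. It read 7.95, 8.37 and 8.60 in the arrays numbered 4, 6.72, 7.21 and 7.47 in those numbered 3, 8.05, 8.21 and 8.13 in those numbered 2 and 7.85, 7.60 and 7.53 in those numbered 1, each in the order control, MO-1 and MO-2. Signal was high in numbers 2 and 4 and low in number 3, lowest in control replicate 3. The difference of number 4 from the others was 0.67 (SE 0.16) (limma, adjusted p = 0.0192) and that of number 3 was -0.90 (SE 0.16) (limma, adjusted p = 0.0117). Without MO-1 or MO-2 replicate 4 the first had adjusted p = 0.089 and 0.154, and without control or MO-1 replicate 3 the second had adjusted p = 0.0513 and 0.0751. It was the 1 member past the threshold for number 3, against 3.41% of all probe sets (2.39% lower), and 21 of 40 members were higher there (54.9%). Its neighbours hoxc8a and hoxc5a had differences of -0.55 (SE 0.17) and -0.42 (SE 0.15) for number 3, which did not pass (limma, adjusted p = 0.101 and 0.137), nor did hoxa2b at 0.58 (SE 0.16) and hoxb9a at -0.47 (SE 0.18) (0.0736 and 0.164).

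**Figure D4:**
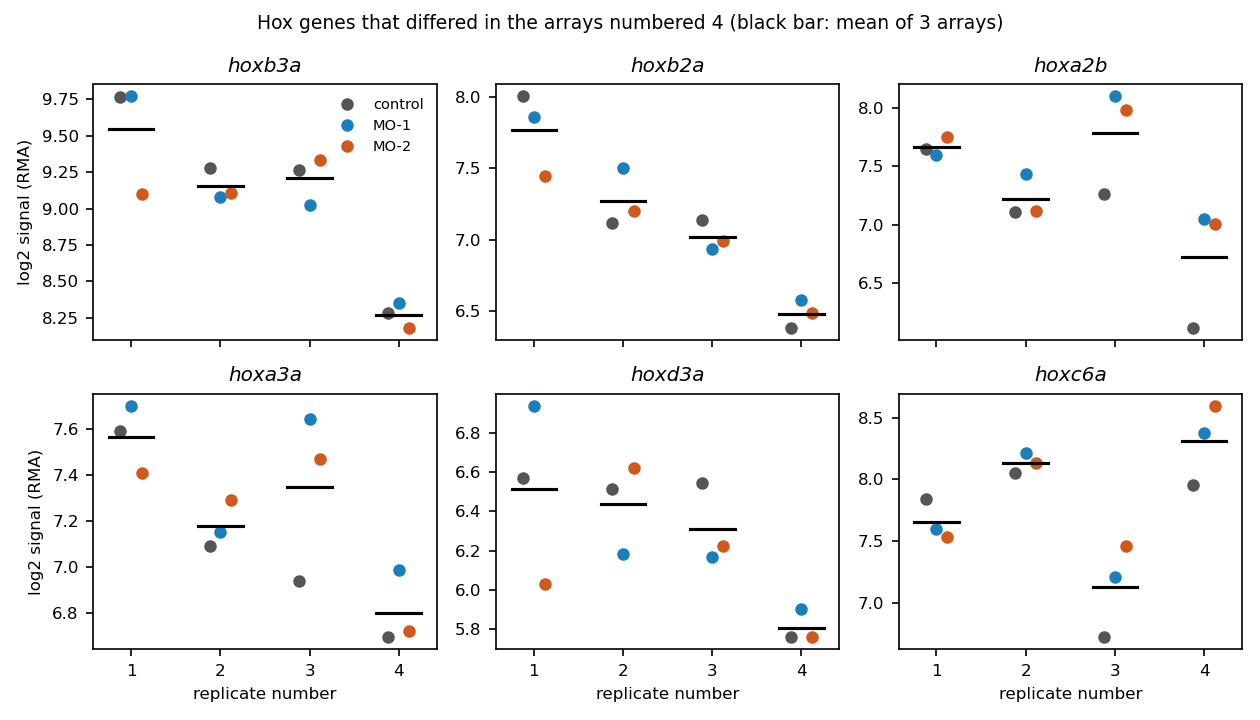
Log2 signal (y axis) of the 6 Hox genes that passed for the arrays numbered 4, by replicate number (x axis), with 1 point for each of the 12 arrays coloured by group and a black bar at the mean of 3 arrays. Both hoxb3a and hoxb2a have their 3 lowest values at number 4, and hoxc6a is lowest at number 3.

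In the arrays numbered 1, hoxb2a and hoxb3a were higher. These were 2 of 40 members, against 4.58% of all probe sets (2.05% higher). The mean of the other numbers includes the low arrays numbered 4, so this is not a result separate from that for number 4. For numbers 1 to 4 the means were 7.77, 7.27, 7.02 and 6.48 for hoxb2a and 9.55, 9.15, 9.21 and 8.27 for hoxb3a. hoxb2a read 8.01, 7.86 and 7.45 (control, then MO-1, then MO-2), a difference of 0.85 (SE 0.14) (limma, adjusted p = 0.0064). The difference of hoxb3a was 0.67 (SE 0.15) (limma, adjusted p = 0.0243), and MO-2 replicate 1, at 9.10, lay within the range of numbers 2 and 3. Without control replicate 1 or MO-1 replicate 1 neither passed, with adjusted p = 0.0675 and 0.0648 for hoxb2a and 0.178 and 0.235 for hoxb3a. All 13 members numbered 1 to 4 had a higher mean in these arrays, by 0.06 to 0.85, against 48.4% of all probe sets. The next smallest p-values belonged to hoxa3a at 0.46 (SE 0.14), hoxb9a at 0.47 (SE 0.18) and hoxa2b at 0.42 (SE 0.16), which did not pass (limma, adjusted p = 0.0842, 0.17 and 0.182). The further probe set of hoxa3a did pass, at 0.78 (limma, adjusted p = 0.0085), while that of hoxb9a had 0.03 (limma, adjusted p = 0.951).

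In the arrays numbered 2, 0 of 40 members passed (1.23% of all probe sets), 7 had a p under 0.05 before adjustment (12.6%), and 25 of 40 had a higher mean (44.5%). hoxb7a read 4.29, 4.96 and 5.11 in replicate 2 of the control, MO-1 and MO-2 groups, a difference of 0.47 (SE 0.13). The 2 morpholino arrays were well above the rest of their groups. Control replicate 2 was the highest control by little, with 4.17, 4.22 and 4.08 in control replicates 1, 3 and 4. hoxc8a differed by 0.54 (SE 0.17), hoxa5a by 0.40 (SE 0.14), hoxc6a by 0.43 (SE 0.16) and hoxb5a by -0.44 (SE 0.16) (limma, adjusted p from 0.118 to 0.265).

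**Figure D5:**
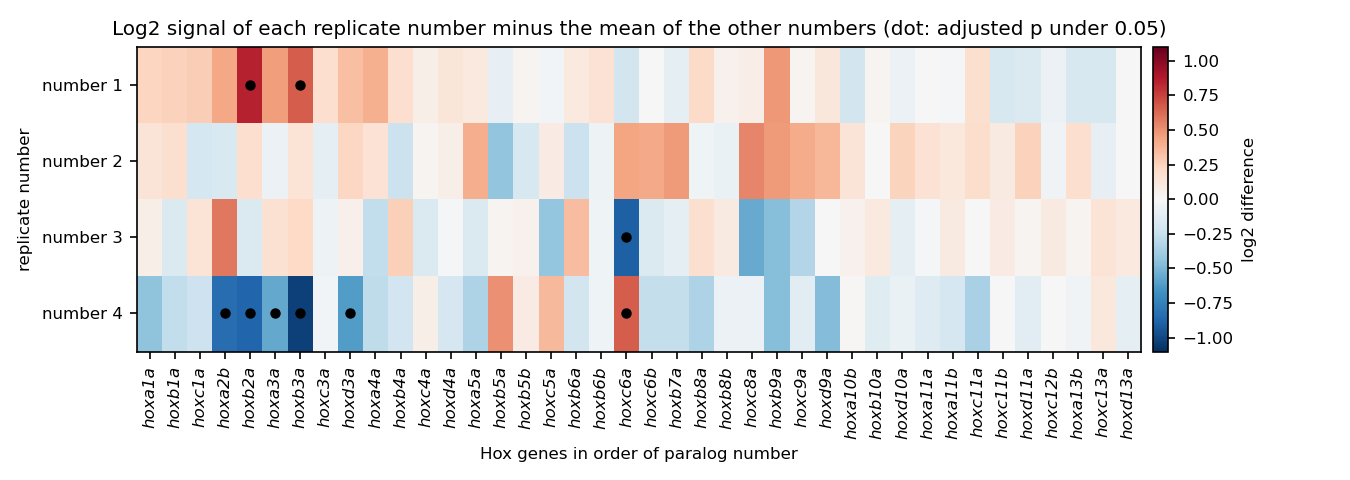
Difference in log2 signal between the arrays of each replicate number (rows) and the mean of the other numbers, for the 40 Hox genes in order of paralog number (columns), from blue (lower) to red (higher), with dots where limma's adjusted p was under 0.05. Dots mark 5 anterior genes lower and hoxc6a higher at number 4, hoxb2a and hoxb3a higher at number 1, and hoxc6a lower at number 3.

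Markers of several cell types differed by replicate number too. At number 4, 9 of 12 endothelial markers passed the threshold as lower and 0 as higher (median -1.02). Passing as higher were 17 of 22 muscle markers and 10 of 23 epidermal markers (medians 1.13 and 0.59). Of 17 markers of hindbrain and spinal cord, 1 passed as higher and 2 as lower (median -0.13). Among all probe sets, 6.05% passed as higher there and 4.1% as lower. Signal at the 3′ end of 2 control transcripts exceeded that at the 5′ end by 2.64 to 2.89 log2 in these arrays and by 1.88 to 2.46 in the other 9. At number 1, 6 of 26 neural markers passed as higher (median 0.53) and 12 of 23 epidermal markers as lower (median -0.78). Hindbrain and spinal cord markers had a higher mean for 14 of 17 genes at number 1 (median 0.42), against 48.4% of all probe sets, with 0 passing. Of all probe sets 4.58% passed there, 2.05% as higher. At number 3, 19 of 22 muscle markers passed as lower (median -1.35), against 2.39% of all probe sets. These moved with the Hox differences by number, and their part in them was not tested.

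Other genes of the Hox network gave 0 calls in the 4 group comparisons. Of 13 genes measured on the cofactor list, 5 were higher and 8 lower with MO-1, and 4 and 9 with MO-2 (medians -0.05 and -0.10). That list also holds tgif1, which is not of the Pbx or Meis family. pknox1.1, a Meis-related cofactor, had 0.39 (SE 0.17) with MO-1, and pbx3b, a Pbx cofactor, -0.52 (SE 0.37) with MO-2. Among 17 genes of retinoic acid synthesis, breakdown and reception, 10 were higher and 7 lower with each, with medians of 0.04 and 0.01. dhrs3a, which turns retinal back into retinol, had 0.30 (SE 0.21) with MO-1 and 0.44 (SE 0.21) with MO-2. Among 16 regulators, 10 were higher with MO-1 and 11 with MO-2 (medians 0.07 and 0.09). The smallest p-values there were those of gbx2, a gene of the hindbrain boundary, at 0.40 (SE 0.20) and 0.52 (SE 0.20), and of cdx4, a caudal factor that activates posterior Hox genes, at 0.64 (SE 0.26) with MO-2. Of 19 Polycomb genes, 8 were higher with MO-1 and 6 with MO-2 (medians -0.02 and -0.03), among them ezh2, the methyltransferase subunit, at -0.15 (SE 0.13) with MO-1. Of 11 other homeobox genes that lie near Hox clusters or near their relatives, 10 were higher with MO-1 and 8 with MO-2 (medians 0.18 and 0.08), with eve1 at 0.38 (SE 0.18) and dlx4b at 0.38 (SE 0.25) with MO-1.

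By replicate number, the lists differed in how many genes passed. Counts of higher and lower genes below are of genes past the threshold. At number 4, 4 of 13 genes of the cofactor list were lower, with -0.68 (SE 0.15) for meis3 and -0.51 (SE 0.14) for meis1a. Of 17 retinoic acid genes, 2 were lower there, cyp26b1 at -1.13 (SE 0.20) and cyp26a1 at -0.98 (SE 0.21), which break down retinoic acid. Of 19 Polycomb genes, 5 were lower there, bmi1a at -0.61 (SE 0.14) and eed at -0.67 (SE 0.15) with the smallest p-values; 0 of 16 regulators and 0 of 11 neighbouring homeobox genes passed, and 0 genes of these lists were higher past the threshold. At number 1, 2 of 13 genes of the cofactor list were higher, meis3 at 1.01 (SE 0.15) and meis2b at 1.14 (SE 0.24). Of 16 regulators, 2 were higher there, gbx1 at 0.78 (SE 0.16) and tshz1 at 0.96 (SE 0.21). One gene of each other list was higher there, which were cyp26b1 at 0.78 (SE 0.20), bmi1b at 0.59 (SE 0.15) and dlx2a at 0.75 (SE 0.14), and 0 were lower. These lists are set beside 10.2% of all probe sets passing for number 4 (4.1% lower) and 4.58% for number 1 (2.05% higher).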

How the data were processed

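RNA of sorted flk1:GFP-positive cells was extracted with Trizol, amplified with a NuGen WT-Ovation Pico kit and labelled with biotin, per the labels' protocols. The authors deposited 1 log2 signal per probe set and array. Per the submitters' processing notes RMA made them (background correction, normalization across arrays and summary per probe set), in a version not given in the sources used here; that the logs have base 2 was read from their range.

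The table held 15617 probe sets; 115 control probe sets were left out and the other 15502 tested without a filter. The platform annotation gave 1 symbol for 10795, several for 135 and none for 4572; 10711 were updated through Entrez numbers with the RefSeq gene table of assembly GRCz12tu, which changed 1 symbol and no Hox symbol. The table's build is not given, so no coordinates are printed.

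Tests used lmFit and eBayes of limma 3.58.1 under R 4.3.3 (two-sided, Benjamini-Hochberg over 15502 probe sets, threshold 0.05), with 13.14 degrees of freedom; 95% intervals of 4 against 4 arrays reached a median of 0.40 log2 to each side. Replicate numbers were tested in a fit with group as a term (12.45 degrees of freedom). The fits were tested on simulated data, with noise drawn independently for each array. The measured arrays correlated by replicate number, so the simulated data do not show how the fit without a block behaves on them. Precision is limited by the number of arrays. The series calls the replicates biological and does not say how samples were drawn, so p-values measure the spread between these samples. What the replicate number stands for is not stated. In the number tests, p-values measure the spread left after number and group are fitted, and arrays that share a number may not be independent.

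Numbers 1 to 4 recur in each group. On values centred on group means, 12 pairs with the same number correlated at 0.22 to 0.63 (median 0.43) and 36 other pairs had a median of -0.17; all 12 arrays had their best partner under their own number, so the number was also fitted as a block.

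Named members were those that passed, the 5 with the smallest p per comparison and the highest and lowest of each paralog number; for lists, up to 2 members with the smallest p. Genes without array overlap were named after their values were seen, and medians by signal range, overlap counts and pair counts were chosen after seeing the data. Members and gene lists were chosen with earlier results of these data known. Alternatives covered the block, a signal filter, normalization, moderation, the mean of a gene's probe sets and leaving out arrays.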

Additional observations from a re-analysis of the deposited data

Results flagged for a closer look

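Of 120 sets of 4 values (40 Hox genes in 3 groups), 6 held an array far from the other 3 by Dixon's criterion, where chance flags about 1 set in 20. Control replicate 3 was far below the other controls for hoxc6a, at 6.72, and for hoxc13a, at 5.08. Control replicate 4 was far below for hoxd3a, at 5.76. MO-1 replicate 2 was far below its group for hoxc1a, at 5.96, and far above it for hoxb7a, at 4.96. MO-2 replicate 2 was far above its group for hoxd10a, at 5.55.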

How the results depend on the processing

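No Hox gene passed in a group comparison under any alternative run, and no gene named for a comparison changed direction. The median Hox difference between the morpholinos, 0.06, was -0.02 without MO-1 replicate 2 and -0.05 without the arrays numbered 2. With the replicate block the count of probe sets passing stayed at 0 in all 4 group comparisons, so the pairing changed no call; hoxb9a with MO-2, for one, had adjusted p = 0.239 (limma). Without the arrays numbered 4, 1 probe set passed with MO-2 and the same 1 with both morpholinos, that of pierce1, named after its values were seen. Restricting to probe sets at or above the median signal left 439, 98 and 1043 passing for numbers 1, 2 and 4 and 1239 for any difference among numbers, with fewer probe sets tested; without the group term number 2 had 122, and the cause was not tested.

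Leaving out 1 array at a time, the median Hox difference ran from 0.10 to 0.25 with MO-1, 0.18 to 0.32 with MO-2, 0.13 to 0.27 with both and -0.02 to 0.15 between morpholinos, with 0 probe sets passing. Probe sets passing ran from 101 to 815 for number 1, 23 to 216 for number 2, 77 to 572 for number 3, 581 to 1805 for number 4 and 1081 to 1922 for any difference. Hox genes passing ran from 0 to 2, 0 to 0, 0 to 1, 3 to 7 and 3 to 7 in that order. Averaging the probe sets of a gene, hoxa3a passed for number 1 at 0.62 (limma, adjusted p = 0.0116) and hoxd3a no longer passed for number 4 at -0.58 (adjusted p = 0.0551). Of the 40 members, 13 lay at or below the lower quartile of all probe sets. Low signal limits the posterior members most. Above that quartile lay 6 of 15 genes numbered 9 to 13, against 11 of 13 numbered 1 to 4 and 10 of 12 numbered 5 to 8.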

Other observations

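In 4 further marker lists 0 genes passed with either morpholino. Mesenchyme and neural crest markers were higher for 13 of 19 genes with MO-1 and 14 of 19 with MO-2 (medians 0.14 and 0.12), and tail bud, notochord and somite markers for 9 of 15 and 10 of 15 (medians 0.12 and 0.09). Pronephros markers were higher for 8 of 12 with each (medians 0.12 and 0.18), and blood markers for 7 of 15 and 8 of 15 (medians -0.01 and 0.05). In the arrays numbered 4, 12 of 15 blood markers had a lower mean and 3 a higher one (median -0.44). Of these, 4 passed the threshold as lower and 0 as higher, against 4.1% and 6.05% of all probe sets.

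By cluster letter, the median Hox difference with MO-1 was 0.23 over 9 A genes, 0.20 over 13 B genes, 0.14 over 12 C genes and 0.35 over 6 D genes. With MO-2 it was 0.25, 0.26, 0.28 and 0.30. The D genes had the highest median with both. Within groups, the median residual SD of the Hox genes was 0.28 log2, against 0.26 for all probe sets.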
